A study of Mus musculus with 2 samples.

Results

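The triglyceride assembly enzymes were compared between murine bone marrow stromal lines of the adipocyte and the osteoblast lineage. They comprised 10 genes chosen by name: *Gpd1*, *Gpam*, *Agpat1*, *Agpat2*, *Agpat3*, *Lpin1*, *Lpin2*, *Lpin3*, *Dgat1* and *Dgat2*. All 10 were found among 20706 genes on the arrays. They were read by 24 of 45101 probe sets, which are groups of short probes for the same transcript, and none of the 24 was shared with another gene. Both lines, labelled BMSC-Adipo and BMSC-Osteo, were clones of bone marrow stromal cells from C57BL/6 mice that carried Beta-actin-GFP and lacked ApoE (Beta-actin-GFP+ ApoE(-/-)), and both had immortalized spontaneously. RNA was taken at day 0 in growth medium without differentiation factors, for which the labels give 12% FBS and the methods a lower share. Each line had 1 Affymetrix array, which held a pool of 3 cultures. With 1 array and 1 clone per line, neither replicate error nor a test was available. Line, clone and array cannot be told apart, and genes were compared by size alone.

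The deposited levels were log2 values made by robust multiarray averaging (RMA), which corrects the background, normalizes between arrays and summarizes the probes of each probe set. The levels, which are not comparable between probe sets, ran from 1.85 to 14.0 in BMSC-Adipo and from 1.77 to 14.0 in BMSC-Osteo. A gene was represented by its brightest probe set, judged by the mean of both arrays, and the dimmest 30% of genes, below a log2 level of 4.20, were filtered out, which left 14497. All 10 members passed this filter, as did 21 of their 24 probe sets. A difference is the log2 level in BMSC-Adipo minus that in BMSC-Osteo throughout, so that 1 is 2-fold and a negative value is higher in BMSC-Osteo. Different probe sets for 1 gene, where several passed the filter (6412 genes), had differences with a pooled SD of 0.40. This is the spread between probe sets named further on, and it describes probe effects and not replicate error. Of 7 adipocytic markers in the table, 6 passed, and these were at least 2-fold higher in BMSC-Adipo, against 7.88% of all genes that passed. In BMSC-Osteo, *Adipoq* (3.16) and *Fabp4* (3.30) lay below the filter level. *Lep*, which did not pass, differed by -0.33. Of 9 osteoblastic markers, 6 were at least 2-fold higher in BMSC-Osteo, against 6.68% of all genes that passed. On the other side stood 3 osteoblastic markers. They were *Dmp1*, an osteocyte matrix protein (difference 1.35), *Spp1* (0.71) and *Runx2* (0.28, with -0.09 on its lowest probe set). By brightest probe sets, blood cell markers past the filter (4 of 7 in the table) differed by -0.32 to 1.41 and endothelial markers (2 of 6) by -0.30 to 0. *Csf1r*, the blood cell marker at -0.32, differed by -1.30 on its lowest probe set. *Ptprc*, which encodes the pan-leukocyte antigen CD45, and *Pecam1*, of endothelial cells, lay below the filter. *Cd68* of macrophages was the blood cell marker at 1.41, with log2 levels of 5.40 in BMSC-Adipo and 3.99 in BMSC-Osteo. Its part in the results was not tested.

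Triglyceride is built in steps on a glycerol backbone. Glycerol 3-phosphate receives a first fatty acid from a glycerol 3-phosphate acyltransferase and a second from an acylglycerol phosphate acyltransferase, which gives phosphatidate. Lipins remove the phosphate to give diacylglycerol, and a diacylglycerol acyltransferase adds the last fatty acid. The pathway fills lipid droplets when preadipocytes mature into adipocytes, and its intermediates phosphatidate and diacylglycerol also feed phospholipid synthesis in every cell. Most steps can be carried out by several enzymes, and the 10 members include such alternatives at the second acylation, at the phosphatase step and at the final step.

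*Lpin1*, *Agpat3* and *Lpin3* stood at least 2-fold apart between the lines and had a promoter in the RefSeq table of assembly GRCm38.p6, so these promoters are shown, each as 250 bases before and 50 after a start on its own strand. In all, 7 of the 10 members had a promoter there, with 12 windows between them. Capitals mark matches on either strand to any of 7 sequences searched, which were the E-box CACGTG, the sterol response element TCACNCCAC, the direct repeat 1 bound by PPAR with RXR (AGGTCA, any base, and the same letters again), the C/EBP sequence TTGCNNAA, the CCAAT box, the GC box GGGCGG and the TATA box TATAAA. *Lpin1* lies on the minus strand at chr12:16610917-16611216, at a start inside the span of the gene. *Agpat3* lies on the minus strand at chr10:78351651-78351950. *Lpin3* has 2 starts on the plus strand, at chr2:160880420-160880719 and chr2:160887918-160888217.
Lpin1: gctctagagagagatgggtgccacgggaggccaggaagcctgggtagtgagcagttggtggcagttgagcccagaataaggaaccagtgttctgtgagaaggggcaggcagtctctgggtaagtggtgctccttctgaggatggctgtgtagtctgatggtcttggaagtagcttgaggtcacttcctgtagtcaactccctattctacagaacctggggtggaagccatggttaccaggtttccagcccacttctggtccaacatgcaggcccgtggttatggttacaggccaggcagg
Agpat3: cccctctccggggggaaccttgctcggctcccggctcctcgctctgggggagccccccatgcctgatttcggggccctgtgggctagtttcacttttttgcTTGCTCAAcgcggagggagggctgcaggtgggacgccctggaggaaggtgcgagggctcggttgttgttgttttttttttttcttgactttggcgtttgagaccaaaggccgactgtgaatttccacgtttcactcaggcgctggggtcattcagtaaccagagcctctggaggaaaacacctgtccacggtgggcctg
Lpin3, start 1: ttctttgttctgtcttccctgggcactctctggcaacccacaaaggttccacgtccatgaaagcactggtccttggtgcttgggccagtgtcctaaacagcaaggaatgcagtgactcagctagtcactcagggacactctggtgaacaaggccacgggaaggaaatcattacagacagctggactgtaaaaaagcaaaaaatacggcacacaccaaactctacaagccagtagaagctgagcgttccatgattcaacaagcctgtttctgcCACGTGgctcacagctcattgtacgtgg
Lpin3, start 2: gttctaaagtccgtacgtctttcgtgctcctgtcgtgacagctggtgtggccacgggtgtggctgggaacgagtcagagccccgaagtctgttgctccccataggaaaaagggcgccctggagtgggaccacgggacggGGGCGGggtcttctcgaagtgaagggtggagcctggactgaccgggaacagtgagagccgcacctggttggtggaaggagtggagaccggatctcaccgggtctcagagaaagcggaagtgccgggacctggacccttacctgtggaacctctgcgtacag

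The window of *Lpin1* held none of the 7 sequences. That of *Agpat3* held a C/EBP match beginning 149 bases before the start, a sequence found in 10.8% of all 32851 promoters of the table. The first window of *Lpin3* held an E-box beginning at base 23 after the start, found in 7.15% of promoters, and the second a GC box beginning 111 bases before the start, found in 35.7%. The sterol response element (1.24% of promoters) and the direct repeat (0.0396%) were in none of the 12 windows of the members, nor was the TATA box (13.6%). E-boxes were also found in *Lpin2*, C/EBP matches in *Lpin2* and *Gpam*, and CCAAT boxes (37.4% of promoters) in *Agpat1*, *Lpin2* and *Gpam*. GC boxes were also found in *Agpat1*, *Agpat2*, *Lpin2* and *Gpam*.

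The members differed in both directions. Past the size rule of 2-fold, 2 of 10 were higher in BMSC-Adipo (*Lpin1* and *Agpat3*), where 7.88% of all genes that passed were, and 2 were higher in BMSC-Osteo (*Lpin3* and *Dgat2*), where 6.68% of all genes were. The other 6 lay within 2-fold. At any size, 4 of 10 were higher in BMSC-Adipo, as were 46.7% of all genes. A further 5 were lower, as were 51.4% of all genes, and 1 was equal. The median difference of the members was -0.08, beside -0.03 over all 14497 genes. By single probe sets, 6 of 24 (25.0%) were at least 2-fold higher in BMSC-Adipo against 5.51% of the 38190 probe sets with 1 gene, and these were the 4 of *Agpat3* and the 2 of *Lpin1*. A further 2 of 24 (8.33%) were at least 2-fold higher in BMSC-Osteo against 4.61%. Probe sets of the same gene share its transcript and are not independent of each other.

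**Figure D1:**
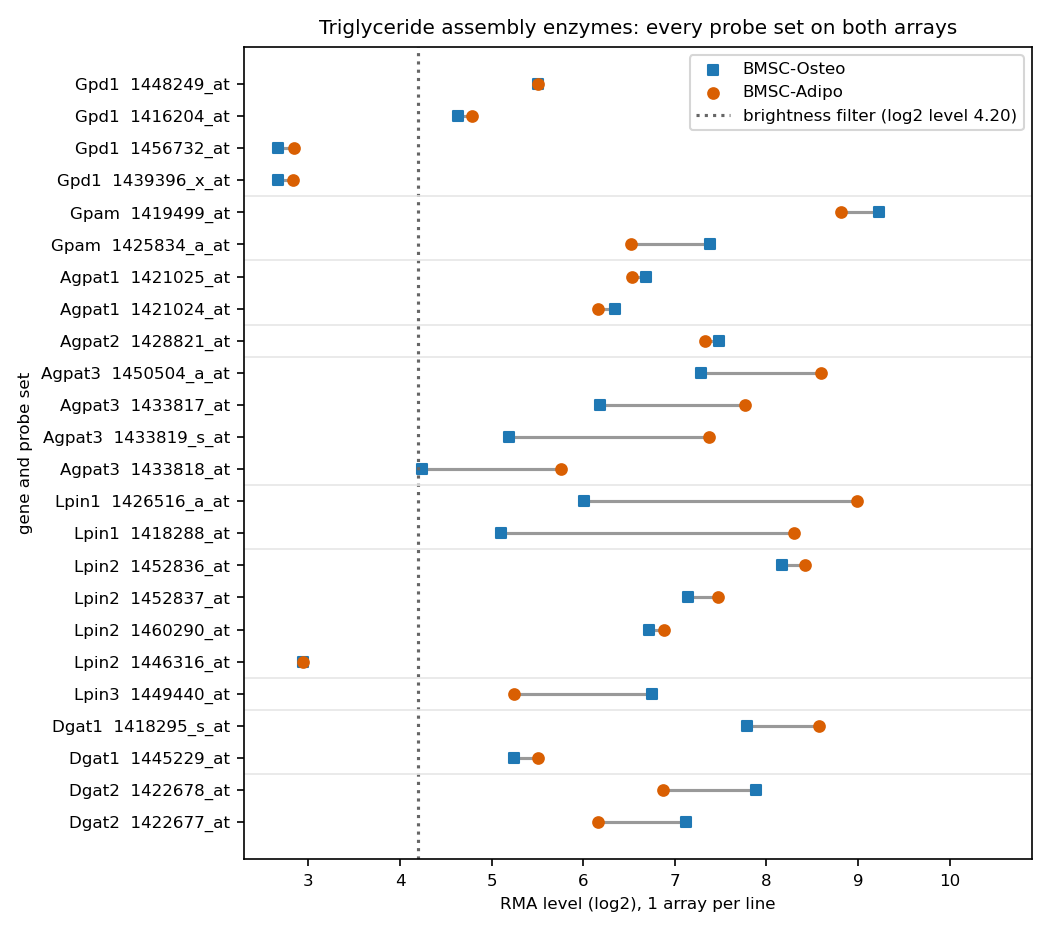
RMA level (log2, horizontal axis) of each of the 24 member probe sets (vertical axis) in BMSC-Adipo (circles) and BMSC-Osteo (squares), 1 array per line, joined by a grey bar, with the brightness filter dotted at 4.20. The bars of Lpin1 and Agpat3 reach to the right for BMSC-Adipo on every probe set, those of Lpin3 and Dgat2 reach to the right for BMSC-Osteo, and the symbols of Gpd1 lie on or near each other.

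*Gpd1* was dim, with nearly equal levels on both arrays. It encodes the cytosolic dehydrogenase that makes glycerol 3-phosphate from the glycolytic intermediate dihydroxyacetone phosphate and is a known marker of maturing adipocytes. Its brightest probe set had a log2 level of 5.50 on both arrays (difference 0). The second had 4.79 in BMSC-Adipo and 4.64 in BMSC-Osteo (difference 0.16), and the remaining pair, at 2.85 and 2.83 in BMSC-Adipo and 2.67 on both in BMSC-Osteo, lay below the filter. All 4 *Gpd1* probe sets were thus dim, and the 3 that were not equal differed by 0.16 to 0.18, less than the spread between probe sets. Equal values to 9 decimals were found for 4.65% of all probe sets, and the differences of 2 *Gpd1* probe sets agreed to 6 decimals with each other. As an outside mark of dimness, 95% of 44 probe sets of olfactory receptor genes had a mean below 5.14, and only the brightest *Gpd1* probe set exceeded it.

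*Gpam*, which encodes the mitochondrial glycerol 3-phosphate acyltransferase of the first acylation, leaned toward BMSC-Osteo. Its brighter probe set had a log2 level of 8.82 in BMSC-Adipo and 9.23 in BMSC-Osteo, a difference of -0.42 (1.33-fold). The other had 6.52 in BMSC-Adipo and 7.38 in BMSC-Osteo, a difference of -0.86 (1.81-fold). Both probe sets had the same sign and neither reached 2-fold, and 42.8% of all genes past the filter differed by more in either direction than the brighter of them.

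The acylglycerol phosphate acyltransferases of the second acylation split. *Agpat3* encodes a member of this family that resides in the endoplasmic reticulum and Golgi and was higher in BMSC-Adipo on all 4 of its probe sets. Its brightest probe set, which reads alternative transcripts of the gene, had a log2 level of 8.60 in BMSC-Adipo and 7.29 in BMSC-Osteo, a difference of 1.31 (2.48-fold). The others had levels of 7.76 against 6.19 (difference 1.58, 2.98-fold), 7.37 against 5.19 (2.18, 4.52-fold) and 5.76 against 4.24 (1.51, 2.86-fold). The suffix of the probe set with 2.18 (s_at) marks probes that can match several transcripts, and the other 3 ran from 1.31 to 1.58. The probe set that stands for *Agpat3* therefore gave the smallest of its 4 differences, and the range of 0.87 between them was the widest of the members. Of 1110 genes with 4 or more probe sets that passed the filter, 2.16% had all of them at least 2-fold higher in BMSC-Adipo.

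*Agpat1* and *Agpat2* had no such difference. *Agpat2* encodes the isoform whose loss causes congenital lipodystrophy in humans, and its single probe set had a log2 level of 7.33 in BMSC-Adipo and 7.49 in BMSC-Osteo (difference -0.16). *Agpat1*, a broadly used isoform, had 6.53 in BMSC-Adipo and 6.69 in BMSC-Osteo on its brighter probe set (-0.16) and 6.16 and 6.34 on the other (-0.18). All 3 values were slightly negative and smaller than the spread between probe sets. The ratio of *Agpat3* to *Agpat1* was 2.76-fold higher in BMSC-Adipo than in BMSC-Osteo by the brightest probe sets, and its log2 change ran from 1.47 to 2.36 over all pairs of their probe sets, the upper end coming from the s_at probe set of *Agpat3*.

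The phosphatidate phosphatases held the most extreme members on both sides. *Lpin1* encodes lipin 1, the main lipin of adipose tissue and muscle, which dephosphorylates phosphatidate and also acts in the nucleus as a coregulator of transcription. Its brighter probe set had a log2 level of 8.99 in BMSC-Adipo and 6.01 in BMSC-Osteo, a difference of 2.97 (7.86-fold). Its other probe set had 8.30 in BMSC-Adipo and 5.11 in BMSC-Osteo, a difference of 3.19 (9.12-fold). Both probe sets thus gave a like size, 0.21 apart, and 136 of the 14497 genes (0.938%) had a larger difference toward BMSC-Adipo than *Lpin1*. Of the 6412 genes that kept more than 1 probe set, 4.35% were at least 2-fold higher in BMSC-Adipo on each.

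*Lpin3*, which encodes the remaining lipin of this family, went the other way. Its single probe set had a log2 level of 5.24 in BMSC-Adipo and 6.75 in BMSC-Osteo, a difference of -1.51 (2.85-fold higher in BMSC-Osteo). Of all genes past the filter, 3.20% had a lower difference. The level in BMSC-Adipo lay near the mark of the olfactory receptor probe sets, and no second probe set was present to set beside it. *Lpin2*, which encodes a lipin prominent in liver, lay near 0. Its 3 probe sets past the filter had log2 levels of 8.42, 7.47 and 6.88 in BMSC-Adipo and of 8.17, 7.15 and 6.72 in BMSC-Osteo, with differences of 0.25, 0.32 and 0.17. The fourth, below the filter, had 2.94 on both arrays. The 3 lipins therefore stood in the order *Lpin1*, *Lpin2*, *Lpin3* by their difference, and no probe set of one fell within the range of another. The ratio of *Lpin1* to *Lpin3* was 22.4-fold higher in BMSC-Adipo than in BMSC-Osteo, and that of *Lpin1* to *Lpin2* 6.63-fold. When 32 was first added to each linear value, which shrinks differences of dim probe sets, these ratios became 11.2-fold and 4.78-fold. The first rests on the single dim probe set of *Lpin3*.

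The diacylglycerol acyltransferases of the final step also leaned in opposite directions. *Dgat1* and *Dgat2* encode unrelated proteins that catalyse the same reaction. *Dgat2*, the enzyme tied to newly made fatty acids and lipid droplets, had a log2 level of 6.87 in BMSC-Adipo and 7.88 in BMSC-Osteo on its brighter probe set, a difference of -1.01 (2.01-fold higher in BMSC-Osteo). Its other probe set had 6.16 in BMSC-Adipo and 7.13 in BMSC-Osteo, a difference of -0.97 (1.95-fold), so that *Dgat2* lay just inside the size rule by 1 probe set and just outside by the other. After the median difference of all genes had been subtracted, neither reached 2-fold. *Dgat1*, of the endoplasmic reticulum, had levels of 8.58 in BMSC-Adipo and 7.79 in BMSC-Osteo on its brighter probe set (difference 0.79, 1.72-fold) and of 5.50 and 5.25 on the other (0.26). The suffix of the brighter one (s_at) marks probes that can match several transcripts. *Dgat1* was the member next below the size rule on the side of BMSC-Adipo. The ratio of *Dgat1* to *Dgat2* was 3.47-fold higher in BMSC-Adipo, and its log2 change ran from 1.23 to 1.79 over their probe sets.

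**Figure D2:**
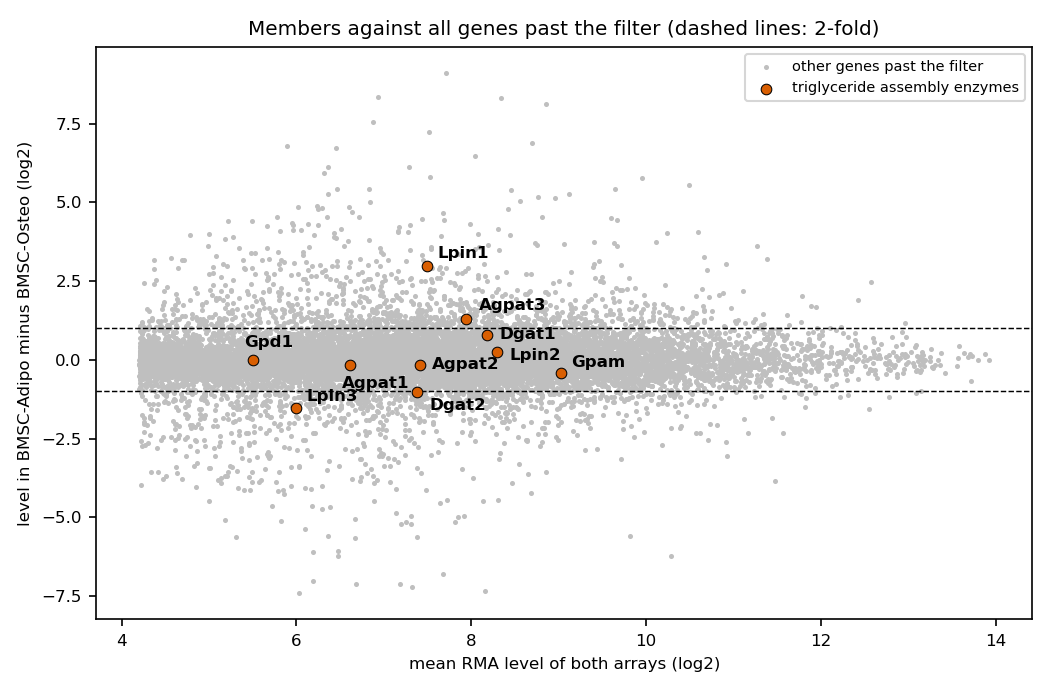
Difference in log2 level between BMSC-Adipo and BMSC-Osteo (vertical axis) against the mean log2 level of both arrays (horizontal axis) for the 14497 genes past the filter (grey points), with the 10 members in orange and 2-fold dashed. Lpin1 (2.97) and Agpat3 (1.31) lie above the upper line, Lpin3 (-1.51) and Dgat2 (-1.01) below the lower one, and the other 6 between them.

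Other genes of the pathway were described by 5 lists of 88 genes in all, of which 87 were in the table and 79 passed the filter. Of the 79, 12 (15.2%) were at least 2-fold higher in BMSC-Adipo and 4 (5.06%) in BMSC-Osteo, with a median difference of 0.12, beside 7.88%, 6.68% and -0.03 over all genes. *Fabp4*, *Cebpa* and *Pparg* are among the 12 and are also adipocytic markers, and without these 3 the counts were 9 of 76 (11.8%) and 4 of 76 (5.26%), with a median of 0.10. Among 11 further acyltransferases and phosphatases listed with the pathway, 1 (9.09%) passed the rule. Not all of the 11 act at the steps of the members. This was *Plpp3*, a membrane lipid phosphatase that acts on phosphatidate and lysophosphatidate, with log2 levels of 11.8 in BMSC-Adipo and 7.35 in BMSC-Osteo (difference 4.50, and 4.96 on its other probe set). *Plpp2* (-0.92), *Agpat4* (-0.60) and *Cnep1r1* (0.58), the regulatory subunit of the phosphatase that acts on lipins, followed within 2-fold. The other probe set of *Plpp2* differed by only -0.14. The microsomal acyltransferases of the first step, *Gpat3* (0.56) and *Gpat4* (-0.10, with 0.28 on its other probe set), lay within 2-fold, as did *Gpam*.

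Of 16 genes of glycerol and acyl-CoA supply, 2 (12.5%) were at least 2-fold higher in BMSC-Adipo and none in BMSC-Osteo, with a median of 0.19. *Fabp4*, the fatty acid binding protein of adipocytes, differed by 6.12 (0.47 on its least different probe set) and *Acsl1*, an acyl-CoA synthetase, by 1.18 (-0.45 on its lowest). Glycerol kinase, *Gk* (0.98, with 0.08 on its lowest probe set), and *Gpd1l* (0.98), a relative of *Gpd1*, lay just under the rule. The log2 levels of *Gpd1l* were 8.03 in BMSC-Adipo and 7.05 in BMSC-Osteo. They come from another probe set and cannot be compared with those of *Gpd1*.

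Of 24 genes at the branches to phospholipids, 2 (8.33%) were at least 2-fold higher in BMSC-Adipo and 3 (12.5%) in BMSC-Osteo. The median was 0.08, and the shares over all genes were 7.88% and 6.68%. *Etnk1* (1.29, with 0.87 on its lowest probe set), an ethanolamine kinase, and *Chpt1* (1.23), which joins choline phosphate to diacylglycerol, were the former. The latter were *Selenoi* (-1.33), which joins ethanolamine phosphate to diacylglycerol, and the diacylglycerol kinases *Dgkg* (-2.31) and *Dgkz* (-1.42), which turn diacylglycerol back into phosphatidate. Another probe set of *Selenoi* differed by only -0.15. The level of *Dgkg* in BMSC-Adipo, 4.10, lay below the filter level of 4.20.

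Among 15 genes of triglyceride breakdown and droplet assembly, 4 (26.7%) were at least 2-fold higher in BMSC-Adipo and 1 (6.67%) in BMSC-Osteo, with a median of 0.08. *Plin4*, a droplet coat protein, differed by 5.41 and *G0s2* by 2.03. *Bscl2*, which encodes seipin, a droplet assembly protein that also binds lipin 1, differed by 1.61. *Abhd5* differed by 1.16, with 0 on its lowest probe set. *Mgll*, monoacylglycerol lipase, was the 1 on the other side (-3.04, with -0.16 on its least different probe set). Of 13 regulators, 3 (23.1%) were at least 2-fold higher in BMSC-Adipo and none in BMSC-Osteo, with a median of 0.25. These were *Cebpa* (4.53), *Pparg* (4.05) and *Nr1h3* (3.00), which encodes the sterol sensor LXR alpha. *Insig1* (0.42), an inhibitor of SREBP processing, was next. *Srebf1*, whose product SREBP1 switches on genes of fatty acid and glycerolipid synthesis, had levels of 8.95 in BMSC-Adipo and 8.81 in BMSC-Osteo (0.14).

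**Figure D3:**
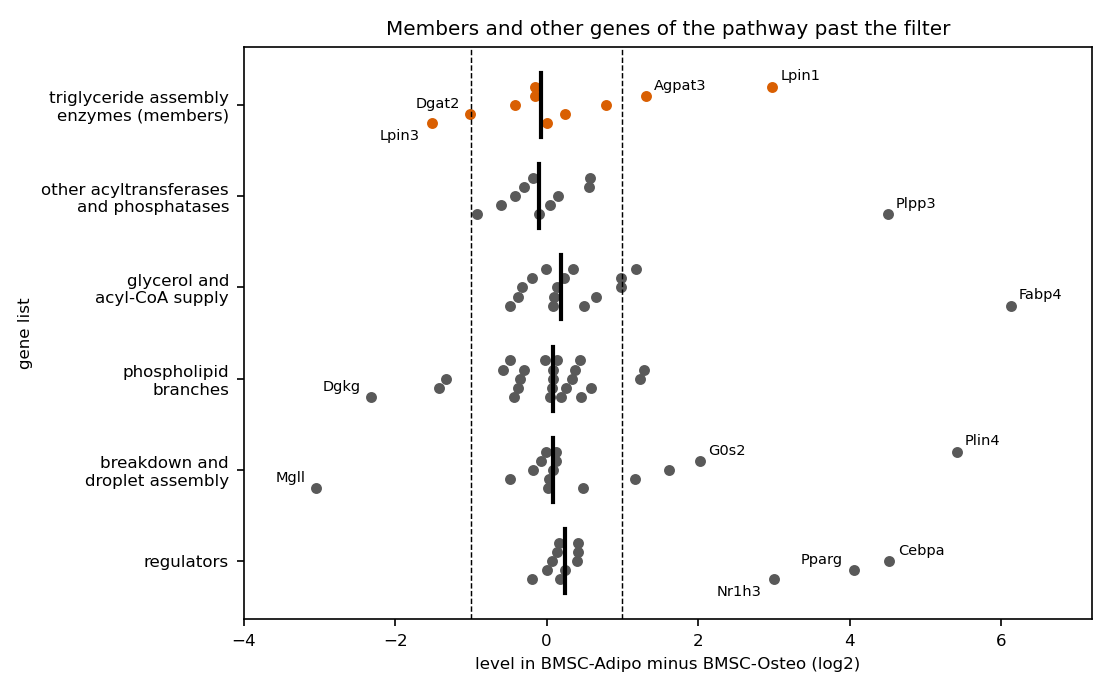
Difference in log2 level between BMSC-Adipo and BMSC-Osteo (horizontal axis) for each gene past the filter in the members (orange) and in 5 lists of other pathway genes (grey), with list medians as black bars and 2-fold dashed. Medians lie between -0.10 and 0.25, and single genes such as Lpin1 (2.97), Plpp3 (4.50) and Fabp4 (6.12) stand far from them.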

How the data were processed

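Gene expression was measured on 2 Affymetrix arrays, 1 per line, from 8 ug of RNA. The values the authors deposited are log2 levels from RMA in the oligo package. The sources used here give no version or settings for it and no genome build. The deposited log2 fold change column, the authors' own comparison, served only as a check. It equalled the differences used here with the opposite sign (largest gap 1e-08). The series matrix held the same values (largest gap 0). Of 45101 probe sets, 64 controls, 5368 without a gene and 1479 with several genes were left out, and 38190 remained. Genes took their brightest probe set, with a filter at the 30th percentile and a size rule of 2-fold. The named genes were all members and up to 4 per pathway list with the largest absolute difference. *Gpat3*, *Gpat4*, *Srebf1*, *Chpt1*, *Abhd5*, *Adipoq*, *Dmp1*, *Spp1*, *Runx2*, *Cd68*, *Csf1r* and the markers below the filter were named after their values were seen. The members and lists were chosen with earlier results of these data known. *Hbb-b1* had only a shared probe set and *Plin1* was not analysed here. Without replicates there is no p-value, and precision is limited by the number of arrays. The alternatives were another probe set per gene, other filters, centring, size rules and an offset of 32 on the linear scale. The offset for ratios between members and the pathway count without adipocytic markers were chosen after seeing the data. The counting was tested on simulated data. Promoters came from RefSeq (GRCm38.p6). Calculations used Python 3.11.15, numpy 2.4.6, pandas 2.3.3, statsmodels 0.14.6 and matplotlib 3.10.9.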

Additional observations from a re-analysis of the deposited data

How the results depend on the processing

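No paired analysis was possible because each line had 1 array. Differences of single members were recomputed in 46 combinations of member and alternative that could move a value, leaving out the series matrix, which held identical values, and other probe sets for *Agpat2* and *Lpin3*, which have 1 each. None changed the sign of a member past 2-fold, and 4 moved by more than the spread between probe sets (0.40). *Gpam* became -0.86 and *Dgat1* 0.26 with the dimmest probe set, and *Lpin1* 2.48 and *Lpin3* -1.002 with the offset of 32. The members at least 2-fold higher in BMSC-Osteo numbered 1 and not 2 with the mean or the dimmest of a gene's probe sets, with the median difference subtracted and with the offset, and 0 at 4-fold. Their probe sets on that side numbered 1 with the median subtracted or the offset, 4 at 1.5-fold and 0 at 4-fold, against 2. At 4-fold the members higher in BMSC-Adipo numbered 1 (3 probe sets), and the other pathway genes 7 in BMSC-Adipo and 2 in BMSC-Osteo. The remaining counts lay within 1.5 times of those reported and the members' median moved by less than 0.40 under every alternative run, the loess curve among them. Dim probe sets, such as those of *Gpd1*, limit what could be seen.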
